A study of Homo sapiens with 9 samples.

Results

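The 9 genes described here, which cells switch on in answer to interferon (IFIT1, IFIT2, IFIT3, OAS1, OAS2, MX1, ISG15, IFI44 and IRF7), were measured across 9 expression arrays of Y79 cells, a human retinoblastoma line grown in suspension from a childhood tumour of the retina. Members were every probe set, the group of short probes that reports 1 transcript, that the array's annotation ties to exactly 1 of these symbols. This gave 22 of the 49293 probe sets tested and 9 of 18155 genes: IFI44 had 6 probe sets, OAS2 had 5, OAS1 had 4, IFIT2 had 2, and the 5 other genes had 1 each. A further 2 probe sets are shared by OAS2 and OAS3 and were not counted as members.

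The arrays fall into 3 groups of 3. The Control cells were untreated, the GNPs cells received bare gold nanoparticles, and the GNPs-HDM2 cells received gold nanoparticles that carry an HDM2 peptide, named for the human double minute protein that binds and restrains p53. All were cultured in RPMI medium, and biotin-labelled cRNA from total RNA was hybridized. The series addresses what the peptide-bearing particle does to transcription in retinoblastoma cells, set against both untreated cells and the bare particle. The sources used here do not give the dose, the exposure time or whether a group's 3 arrays came from separate cultures. The tests therefore weigh a difference only against the spread among these arrays, which may be technical. All arrays are of 1 cell line. In such bulk RNA, fewer cells of a kind and less RNA per cell cannot be told apart.

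Type I interferons signal through a receptor made of IFNAR1 and IFNAR2 and its bound kinases, and the factor complex that forms, which includes IRF9, binds a short promoter element and switches on antiviral genes. IFIT1 binds foreign RNA and blocks its translation, and IFIT2 and IFIT3 are proteins of the same family. OAS1 and OAS2 sense double-stranded RNA and make the messenger that activates RNase L, MX1 is a dynamin-like GTPase that blocks viral replication, ISG15 is a ubiquitin-like protein attached to other proteins, IFI44 is an antiviral cytoplasmic protein, and IRF7 is the transcription factor that amplifies interferon production. In cells that meet no interferon these genes are usually low.

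Several of these genes carry the interferon-stimulated response element, whose core was searched as GAAANNGAAA on both strands in the 250 bases before each start site (RefSeq sequence, GRCh38.p14). Promoter windows were at hand for 6 of the 9 genes, and 5 of them (ISG15, IFI44, IFIT3, IFIT1 and MX1) had a match in at least 1 window, 7 windows of 10 in all. Of all 35116 promoter windows, 3.02% held a match. The sequences below show the element in 3 members and its place, with the matches in capitals and neighbouring matches allowed to overlap. IFIT3 and IFIT1, separated on chromosome 10 by IFIT1B, are shown because they had the largest and the smallest change of the 9 genes, and ISG15 because its conjugate arrays overlapped those of both other groups. All 3 windows lie on the plus strand just upstream of the gene, at chr10:89327747-89327996 for IFIT3, chr10:89392373-89392622 for IFIT1 and chr1:1013247-1013496 for ISG15.
IFIT3: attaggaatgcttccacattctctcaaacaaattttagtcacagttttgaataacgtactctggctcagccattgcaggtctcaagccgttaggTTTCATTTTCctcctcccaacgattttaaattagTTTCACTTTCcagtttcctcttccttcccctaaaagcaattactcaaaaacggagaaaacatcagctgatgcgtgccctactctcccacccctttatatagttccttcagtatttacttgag
IFIT1: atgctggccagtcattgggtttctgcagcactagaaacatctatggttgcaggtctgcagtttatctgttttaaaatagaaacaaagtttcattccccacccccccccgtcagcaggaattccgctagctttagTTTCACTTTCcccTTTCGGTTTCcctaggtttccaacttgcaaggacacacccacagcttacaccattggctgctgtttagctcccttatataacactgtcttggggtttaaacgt
ISG15: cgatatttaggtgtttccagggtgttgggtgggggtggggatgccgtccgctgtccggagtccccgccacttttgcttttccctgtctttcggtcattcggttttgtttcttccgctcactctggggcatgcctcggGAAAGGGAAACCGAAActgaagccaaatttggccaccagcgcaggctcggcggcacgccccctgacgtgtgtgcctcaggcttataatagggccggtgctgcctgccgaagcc
In IFIT3 the matches TTTCATTTTC and TTTCACTTTC begin 156 and 122 bases before the start site. In IFIT1 the matches TTTCACTTTC and TTTCGGTTTC begin 116 and 103 bases before it, and in ISG15 GAAAGGGAAA and GAAACCGAAA overlap and begin 113 and 107 bases before it. The OAS1 window on chromosome 12 held no match for these letters. A match is a description of the sequence and no measure of binding.

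Values are logarithms, taken here as base 2, relative to a baseline that had been subtracted from each probe set before deposit. A value therefore says how far a probe set lies from its own baseline, and not how strongly 1 gene is expressed beside another. The subtracted level could still be read coarsely from the precision of the stored numbers on the Control and GNPs arrays, and it places each probe set in a class: a log2 level of 2 to 4 (dim), 4 to 8 (middle) or 8 to 16 (bright). Of the 22 member probe sets, 13 were dim, 9 were in the middle class and 0 were bright, whereas 18.1% of all probe sets were bright. By contrast, 12 of the 26 probe sets of photoreceptor markers, the lineage of retinoblastoma cells, were bright, against 1 of 26 for blood cell markers.

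The GNPs-HDM2 arrays stood apart from the other 6 over the whole array, and this bears on each result below. The median probe set moved by 0.23 on the log2 scale against Control as deposited, with 12293 probe sets higher and 11692 lower at an adjusted p under 0.05 (limma, Benjamini-Hochberg over all probe sets). Centring each array on its median reduced this shift to 0.06 and gave 8556 higher and 12653 lower, and quantile normalization reduced it to 0.08 and gave 1418 higher and 3822 lower. The shift differed by level: dim probe sets had a median difference of 0.51, middle ones 0.12 and bright ones -1.19. The 23 background probe sets lay 0.52 higher on the conjugate arrays and the 9 hybridization controls 1.94 higher. The median SD within a group was 0.474 for GNPs-HDM2, 0.181 for Control and 0.116 for GNPs. The part of this array-wide pattern in the members' values was not tested except by the centrings described below.

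As deposited, members were higher in GNPs-HDM2 than in Control, and none was lower. At the gene level, where a gene is the mean of its probe sets, 8 of the 9 genes rose, against 33.1% of all genes, with a median difference of 0.75 against 0.25 over all genes (limma, adjusted p under 0.05). By probe set, 13 of 22 rose, against 24.9% of all probe sets, and all 22 differences were positive before any centring, from 0.22 to 1.27. In 17 of the 22, the 3 conjugate arrays lay above the 3 Control arrays, which held for 31.4% of all probe sets. The largest changes were in IFIT3, OAS1, IRF7 and MX1, and the smallest were in IFIT1 and ISG15.

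**Figure D1:**
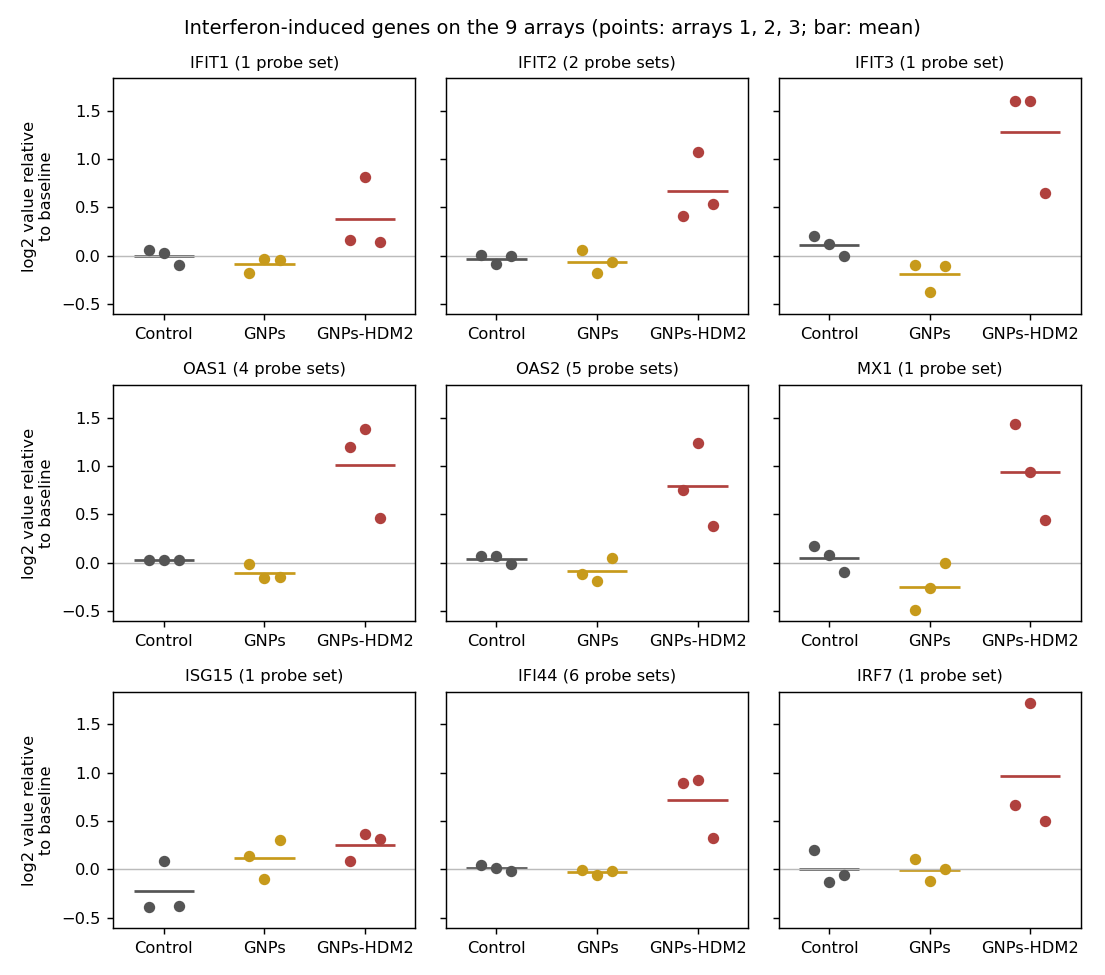
Log2 value relative to baseline (vertical axis) of each of the 9 genes on each array, by group, with replicates 1, 2 and 3 from left to right and a bar at the group mean. Conjugate points lie above the Control points in every gene but ISG15, as deposited, and conjugate replicate 3 is the lowest of its group in 7 genes.

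Among the IFIT genes, IFIT3 had the clearest change. Its single probe set, 11731407_x_at, is of a type that may read more than 1 transcript. This probe set read 0.20, 0.12 and 0.00 on the Control arrays and -0.09, -0.38 and -0.10 on the GNPs arrays (replicates 1, 2 and 3). On the GNPs-HDM2 arrays it read 1.60, 1.60 and 0.64. The conjugate arrays lay above all 6 others, with replicate 3 the lowest of its group. The difference from Control was 1.18 ± 0.25 (SE) on the log2 scale, or 2.26-fold, with an adjusted p of 0.0057 (limma).

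IFIT2, the mean of 2 probe sets, read 0.00, -0.09 and 0.00 in Control, 0.06, -0.17 and -0.07 in GNPs, and 0.41, 1.07 and 0.54 in GNPs-HDM2. The conjugate arrays lay above all 6 others, and the difference from Control was 0.70 ± 0.19 (SE), adjusted p = 0.0129 (limma). Its 2 probe sets gave different calls: the one in the middle class rose by 0.80 (adjusted p = 0.012, limma), and the dim one differed by 0.60 (adjusted p = 0.06, limma).

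IFIT1 read 0.06, 0.03 and -0.09 in Control, -0.18, -0.04 and -0.04 in GNPs, and 0.16, 0.82 and 0.15 in GNPs-HDM2. Only conjugate replicate 2 stood well clear of the other arrays. The difference from Control, 0.38 ± 0.20 (SE), did not pass the threshold (limma, adjusted p = 0.115). The promoters of IFIT1 and IFIT3 printed above each hold a pair of matches, and the difference between the changes of these genes was not tested.

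As deposited the OAS genes rose, with a spread among their probe sets. OAS1, the mean of 4 probe sets, read 0.03 on each Control array, -0.02, -0.16 and -0.15 in GNPs, and 1.19, 1.38 and 0.46 in GNPs-HDM2. The conjugate arrays lay above all 6 others, and the difference from Control was 0.98 ± 0.22 (SE), or 1.97-fold (limma, adjusted p = 0.00713). All 4 OAS1 probe sets passed the threshold, with differences of 0.79 to 1.18.

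OAS2, the mean of 5 probe sets, read 0.06, 0.07 and -0.01 in Control, -0.12, -0.19 and 0.05 in GNPs, and 0.75, 1.24 and 0.38 in GNPs-HDM2. The conjugate arrays lay above all the others, by 0.75 ± 0.21 (SE) against Control (limma, adjusted p = 0.0149). Its probe sets ranged more widely than those of OAS1: 3 of 5 rose, by 0.79, 1.04 and 1.27, and the other 2, both dim, differed by 0.22 and 0.42. OAS1 and OAS2 lie on chromosome 12 with OAS3 between them.

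MX1, read by 1 dim probe set, was 0.17, 0.08 and -0.10 in Control, -0.49, -0.26 and 0.00 in GNPs, and 1.43, 0.94 and 0.44 in GNPs-HDM2. The conjugate arrays lay above all 6 others, and the difference from Control was 0.89 ± 0.25 (SE; limma, adjusted p = 0.0145). IRF7 read 0.20, -0.13 and -0.06 in Control, 0.11, -0.12 and 0.00 in GNPs, and 0.67, 1.72 and 0.50 in GNPs-HDM2. It rose by 0.96 ± 0.29 (SE; limma, adjusted p = 0.0191), with replicate 2 far above the other conjugate arrays.

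IFI44, the mean of 6 probe sets, read 0.05, 0.01 and -0.02 in Control, -0.01, -0.06 and -0.02 in GNPs, and 0.89, 0.93 and 0.32 in GNPs-HDM2. Its difference from Control was 0.70 ± 0.18 (SE; limma, adjusted p = 0.0109), but only 2 of its 6 probe sets passed the threshold by themselves. Those 6 ranged from 0.51 to 1.13, and the largest, 11760254_at, rested mainly on conjugate replicate 1, at 1.98 beside 0.60 and 0.69.

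Probe sets ending in _s_at may read more than 1 transcript, and 11716895_s_at is the only probe set of ISG15. ISG15 had groups that overlapped. It read -0.39, 0.09 and -0.38 in Control, 0.14, -0.10 and 0.30 in GNPs, and 0.09, 0.37 and 0.31 in GNPs-HDM2. The conjugate and Control arrays overlapped, and so did the conjugate and bare-particle arrays. Its difference from Control was 0.48 ± 0.19 (SE), with an adjusted p of 0.0489 over genes and 0.078 over probe sets (limma). It lost its call in 16 of 18 alternative fits, among them the replicate block at an adjusted p of 0.065 (limma).

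Several arrays decided how many members passed. Without Control replicate 2, 6 of the 22 probe sets rose, and 13% of all probe sets did. Leaving out Control replicate 3 gave 7 of 22, beside 11.3% of all probe sets. It also gave 4 of 9 genes, and the share of all genes in that fit is not given here. Without GNPs-HDM2 replicate 3, the conjugate array with the smallest shift, 18 of 22 rose, beside 40% of all probe sets. Fitting only the Control and GNPs-HDM2 arrays gave 6 of 22, beside 10.8% of all probe sets. Quantile normalization, which forces all arrays to 1 distribution, left 0 of 22 probe sets called, beside 2.88% of all probe sets. It left 0 of 9 genes called, and the share of all genes in that fit is not given here. Each of the 9 gene differences was still above 0.

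No member change was detected with the bare particle. Against Control, 0 of 22 member probe sets and 0 of 9 genes passed the threshold in either direction (limma), 0 of them at an unadjusted p under 0.05, where 0.00811% of all probe sets and 0.022% of all genes were called higher. Member differences ran from -0.37 to 0.34 with a median of -0.08, beside -0.04 for all probe sets. The gene-level extremes were MX1 at -0.30 ± 0.25 (SE) and ISG15 at 0.34 ± 0.19 (SE). With array weights or quantile normalization, 1 dim OAS1 probe set, 11724256_s_at, was called lower.

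The conjugate was also compared with the bare particle, a comparison that shares the conjugate arrays with the one above. The threshold was passed by 16 of 22 probe sets, all higher, beside 36.3% of all probe sets, and by 7 of 9 genes, beside 43.2% of all genes (limma). IFIT3 differed by 1.47 ± 0.25 (SE), MX1 by 1.19 ± 0.25, OAS1 by 1.12 ± 0.22 and IRF7 by 0.97 ± 0.29. IFIT1, at 0.46 ± 0.20 (SE), and ISG15, at 0.14 ± 0.19 (SE), did not pass (limma, adjusted p = 0.0536 and 0.51). Without GNPs replicate 2, 10 of 22 probe sets passed, and the share of all probe sets in that fit is not given here.

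Because dim probe sets as a whole were higher on the conjugate arrays, the members were next read against probe sets of their own level. The 13 dim members had a median difference from Control of 0.66, beside 0.51 for all 16001 dim probe sets, and 6 of 13 rose, beside 33.8% of the class. The 9 members of the middle class had a median of 1.04, beside 0.12 for all 24279 probe sets of that class, and 7 of 9 rose, beside 25.7%. The dim members therefore sat close to their class and those of the middle class sat above it.

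Centring each array on the median of each level class gave the same split. Then 7 of 22 member probe sets rose, beside 19.4% of all: 7 of 9 in the middle class, beside 23.8% of it, and 0 of 13 dim ones, beside 8.44% (limma; 1 of the 13 at an unadjusted p under 0.05). The direction of 3 dim probe sets turned below 0 under this centring. At the gene level 5 of 9 rose, beside 23.6% of all genes: IFIT3 by 1.12 ± 0.23 (SE), IRF7 by 0.90 ± 0.26, OAS1 by 0.71 ± 0.17, OAS2 by 0.43 ± 0.15 and IFIT2 by 0.43 ± 0.15. MX1 differed by 0.40, ISG15 by 0.43, IFI44 by 0.29 and IFIT1 by -0.11, none of which passed (limma, adjusted p = 0.13, 0.0664, 0.0731 and 0.556).

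A class median is a mixed yardstick, because the middle class holds genes that fell as well as genes that rose: its 10th and 90th percentiles of change were -1.66 and 1.05. A second yardstick was therefore built from families whose genes are restricted to the nose, tongue, hair and epithelial defence, namely the olfactory receptors, TAS2R taste receptors, keratin-associated proteins and beta-defensins, which a retinoblastoma line has little call to express. This yardstick was added after the values had been seen. Its 358 dim probe sets had a median difference from Control of 0.60, and its 165 middle-class probe sets had one of 0.72, with 10th and 90th percentiles of 0.16 and 1.24.

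**Figure D2:**
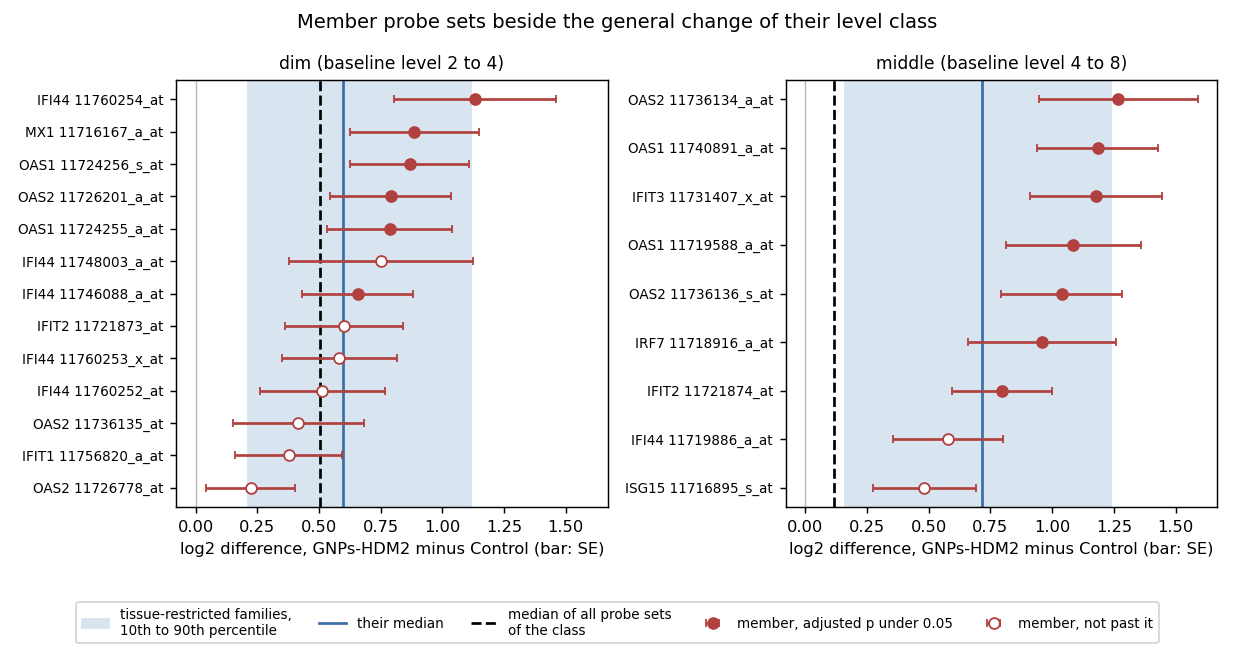
Log2 difference between GNPs-HDM2 and Control, with its SE, of the 13 dim (left) and 9 middle-class (right) member probe sets as deposited. The dashed line is the median of all probe sets of the class, 0.51 and 0.12, and the blue line and band are the median and the 10th to 90th percentiles of the tissue-restricted families, whose median is 0.60 in the dim class and 0.72 in the middle class.

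On the conjugate arrays the tissue-restricted families were shifted upward with the members. On conjugate replicates 1, 2 and 3 the middle-class members had medians of 1.18, 1.55 and 0.51, and the families of that class had 1.03, 1.21 and 0.40. The dim members had 0.53, 0.996 and 0.26, and the dim families 0.79, 1.02 and 0.24. Replicate 3 had the smallest shift and replicate 2 the largest in each of these sets. The other 6 arrays differed between the sets in the middle class. There the families had medians of 0.30, 0.15 and -0.01 in Control and -0.31, -0.16 and -0.22 in GNPs, so that the GNPs arrays lay below the Control arrays. The members had 0.03, 0.00 and -0.01 in Control and 0.07, -0.21 and -0.07 in GNPs, with the groups overlapping. Centring on the families therefore moves GNPs minus Control upward for the middle-class members, as well as moving the conjugate's differences downward.

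**Figure D3:**
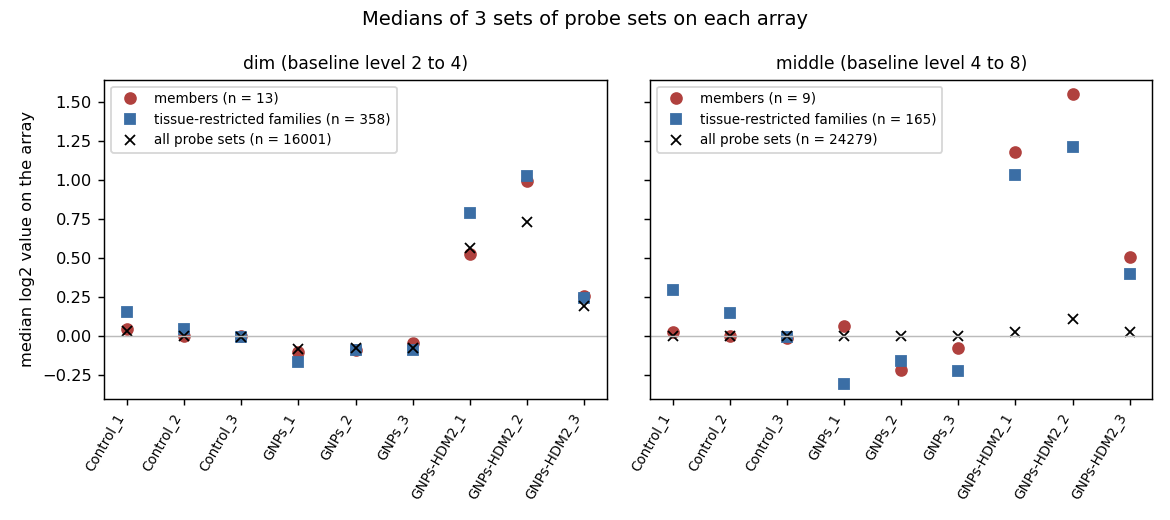
Median log2 value (vertical axis) of the members, the tissue-restricted families and all probe sets on each of the 9 arrays, for the dim class (left) and the middle class (right). On the conjugate arrays the members and the families stand together in both classes as deposited, and in the middle class both stand well above the median of all probe sets.

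Measured against these families, the rise of the members was not detected as a call. After each array was centred on the families' median in each level class, 0 of 22 member probe sets rose and 0 fell (limma, adjusted p under 0.05), with 2 of 22 at an unadjusted p under 0.05, beside 3.7% of the 40280 dim and middle probe sets called higher and 25.8% called lower. The count of 0 higher is close to that 3.7% share, so it does not set the members apart. The median member difference was 0.15, with 14 above 0 and 8 below, beside -0.31 over all these probe sets. Dim members had a median of 0.04, beside -0.11 for all dim probe sets. Middle-class members had one of 0.31, beside -0.61 for that class. Of that class 38.6% were called lower, and 0 of its 9 members were.

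The members nearest to a call under this scaling were in the OAS and IFIT genes. The OAS2 probe set 11736134_a_at differed by 0.54 ± 0.21 (SE), IFIT3 by 0.45 ± 0.18 and the OAS1 probe set 11740891_a_at by 0.45 ± 0.21 (limma, adjusted p = 0.0869, 0.0843 and 0.125). Of the families' middle-class probe sets, 9.09% had a change as deposited at least as high as that OAS2 probe set, 13.3% as high as IFIT3 and 13.3% as high as that OAS1 probe set. At the other end, 73.3% matched or passed ISG15, 67.3% matched or passed the middle-class IFI44 probe set, and in the dim class 76% matched or passed IFIT1. The dim OAS2 probe sets 11726778_at and 11736135_at were matched or passed by 89.1% and 70.4% of the dim families. The members thus spanned the families' range, with IFIT3 and OAS1 in its upper part and OAS2 probe sets at both ends.

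Which members passed under this scaling turned on the arrays used. Without GNPs-HDM2 replicate 3, IFIT3 rose by 0.53 and OAS2 11736134_a_at by 0.69, and the dim OAS2 probe set 11726778_at fell by 0.56 (limma, adjusted p = 0.0315, 0.0172 and 0.0188). Without GNPs-HDM2 replicate 2, only the IFI44 probe set 11760254_at rose, by 0.93. Array weights gave 2 higher and 3 lower, and olfactory receptors alone as the yardstick gave 0 in either direction. The shares of all probe sets called in these refits are not given here. Against the bare particle the same scaling gave 1 member higher, the OAS1 probe set 11724256_s_at at 0.44, and 1 lower, ISG15 at -0.97 (limma, adjusted p = 0.0315 and 0.0167), beside 3.68% of probe sets called higher and 41.8% lower.

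**Figure D4:**
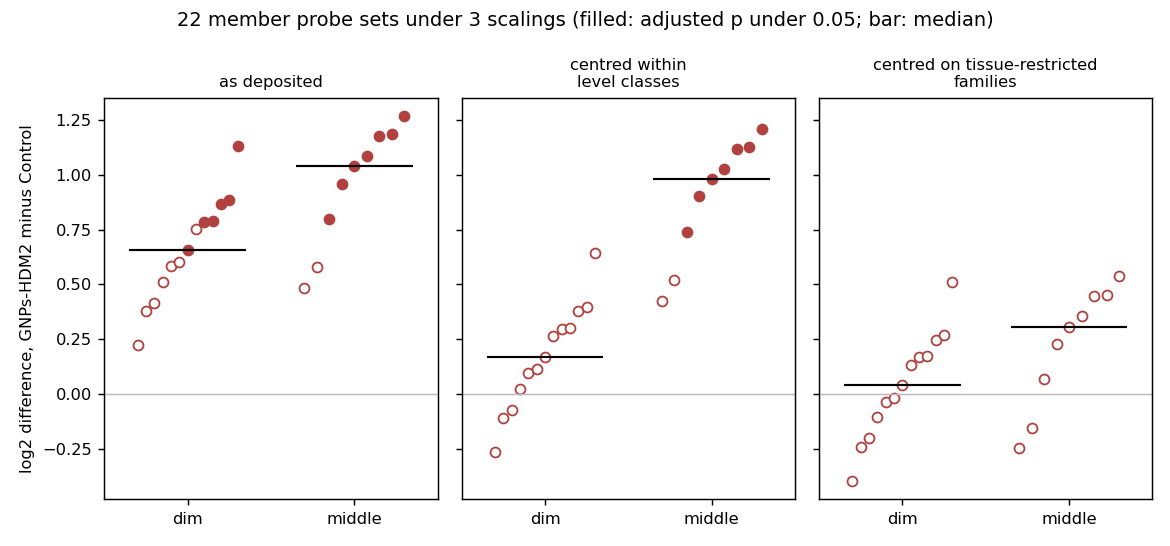
Log2 difference between GNPs-HDM2 and Control of the 22 member probe sets under 3 scalings, with dim and middle-class members apart, filled where the adjusted p is under 0.05 and with a bar at the median. All 22 lie above 0 as deposited, 3 dim ones fall below 0 when centred within level classes, and 8 fall below 0 when centred on the tissue-restricted families, where 0 are filled.

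The rest of the interferon pathway did not move as 1 block. The gene counts that follow stand beside 33.1% of all genes called higher and 25.1% called lower against Control as deposited, and 23.6% higher and 21.6% lower after centring within level classes. Of 48 other interferon-induced genes measured, 29 rose and 4 fell against Control as deposited, with a median of 0.59, and 12 rose and 4 fell after centring within level classes (limma). The share that rose was thus above that of all genes as deposited and close to it after centring. Centred on the tissue-restricted families, 8 of their 87 dim probe sets rose and 0 fell, and 2 of their 49 middle-class ones rose and 13 fell, with medians of -0.08 and -0.26 (limma). Under that scaling 4.4% of all dim probe sets were called higher and 6.35% lower, and 3.25% of all middle-class ones higher and 38.6% lower. SAMD9, a growth-restraining antiviral factor, rose by 1.69 ± 0.16 (SE), and its arrays read -0.06, -0.07 and -0.03 in Control and 1.71, 1.70 and 1.5 in GNPs-HDM2. SAMD9 was among the 8 dim probe sets that passed under that scaling, at 1.07 (limma, adjusted p = 0.00714). SP100, a nuclear body protein, rose by 0.80. EIF2AK2, the double-stranded RNA kinase PKR, fell by 1.77 and ZC3HAV1, a zinc-finger protein that marks viral RNA for decay, fell by 0.84, although both are themselves interferon-induced. The fall of ZC3HAV1 lay in its bright probe sets, at -2.28 and -1.21, beside a median of -1.19 for all bright probe sets. Its dim and middle-class probe sets differed by -0.03 and 0.16 and did not pass (limma, adjusted p = 0.926 and 0.569). After centring within level classes ZC3HAV1 differed by -0.41 (limma, adjusted p = 0.025).

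Ligands and receptors moved in different directions. Of 17 interferon genes, 7 rose and 0 fell as deposited, and IFNA5 and IFNA6 alone rose after centring within level classes. IFNB1, interferon beta, differed by 0.50 ± 0.18 (SE) as deposited, with an adjusted p of 0.0389 that rose to 0.955, at a difference of 0.02, when centred within level classes (limma). IFNA6 rose by 1.004 and IFNL1 by 0.91 as deposited, and IFNL1 did not pass after that centring, at 0.42 (limma, adjusted p = 0.085). By probe set, 0 of 19 dim and 0 of 2 middle-class interferon probe sets were called in either direction when centred on the tissue-restricted families (limma).

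Of the 9 receptor and kinase genes, 6 fell and 0 rose, both as deposited and after centring within level classes (limma), a larger share than that of all genes called lower. IFNGR1, a chain of the interferon gamma receptor, fell by 1.76 ± 0.29 (SE). Its bright probe set fell by 2.98, and its dim one differed by -0.54 and did not pass (limma, adjusted p = 0.133). IFNAR1 fell by 1.36 ± 0.23 (SE), from -0.67, -0.04 and 0.14 in Control to -1.86, -1.38 and -1.40 in GNPs-HDM2. Only 2 of the 4 IFNAR1 probe sets passed the threshold by themselves, at -2.62 and -2.12. IFNAR2 differed by -0.05 ± 0.15 (SE) as deposited and by 0.29 after centring within level classes, and did not pass under either (limma, adjusted p = 0.775 and 0.134).

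Among 6 transcription factors of the pathway other than IRF7, 4 rose and 1 fell under both scalings. IRF8, a factor of blood cells, rose by 1.45 ± 0.26 (SE), with arrays at 0.11, 0.25 and -0.16 in Control and 1.74, 1.97 and 0.85 in GNPs-HDM2. IRF5, which drives inflammatory genes, rose by 1.17, and IRF2, a repressor of interferon-induced genes, fell by 1.68. IRF9, the DNA-binding part of the complex that activates the members, differed by 0.21 ± 0.17 (SE) and did not pass (limma, adjusted p = 0.303). IRF9 reversed to -0.56 when read by its most specific probe set, which did not pass (limma, adjusted p = 0.182). As deposited, the other IRF9 probe sets differed by 0.97, 0.28 and 0.14. Of these, only the one at 0.97 passed, and it rose (limma, adjusted p = 0.0262, 0.281 and 0.685). Centred on the tissue-restricted families, 2 of the list's 4 dim probe sets rose and 0 fell, and 5 of its 19 middle-class ones rose and 3 fell (limma).

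Of 16 sensors and adaptors of foreign nucleic acid, 8 rose and 1 fell as deposited, and 6 rose and 1 fell after centring within level classes. The DNA-pathway adaptor STING1 rose by 1.18 ± 0.26 (SE) and TICAM1, the adaptor of Toll-like receptor 3, rose by 1.53 ± 0.40. TBK1, the kinase that activates interferon regulatory factors, fell by 1.43 ± 0.16. Centred on the tissue-restricted families, the single STING1 probe set no longer passed, at 0.45, and that of TICAM1 did, at 0.92 (limma, adjusted p = 0.0746 and 0.0437). Under that scaling 2 of the list's 22 dim probe sets rose and 0 fell, and 0 of its 15 middle-class ones rose and 2 fell.

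**Figure D5:**
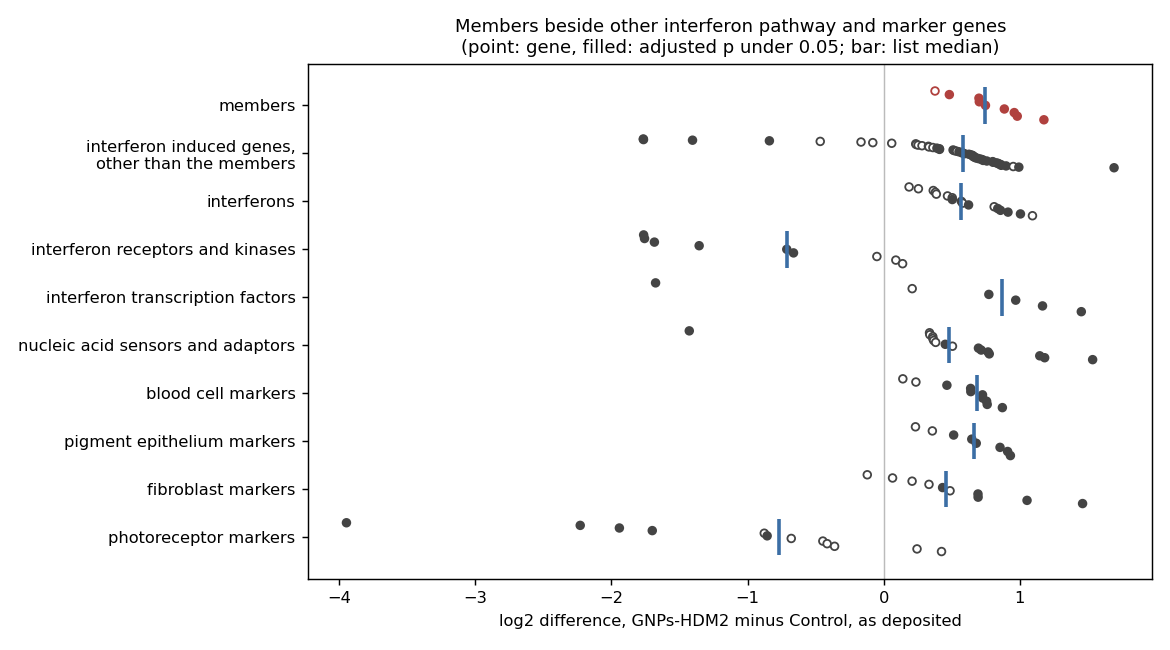
Log2 difference between GNPs-HDM2 and Control as deposited for each gene (points, filled where the adjusted p is under 0.05) of the members and of 9 lists, with a bar at the list median. The members lie between 0.38 and 1.18, with a median of 0.75. Blood cell, pigment epithelium and fibroblast markers have list medians of 0.68, 0.66 and 0.46. Receptors, kinases and photoreceptor markers reach far below 0, and so do some genes of other lists, such as EIF2AK2, IRF2 and TBK1. The transcription factors have the highest list median, at 0.87.

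Markers of cells that a retinoblastoma culture should lack moved with the members. Of 10 blood cell markers, 8 rose and 0 fell as deposited, and 4 rose and 0 fell after centring within level classes, beside the shares of all genes given above. Their mean per array was -0.03 to 0.17 in Control, -0.13 to -0.05 in GNPs and 0.41 to 0.82 in GNPs-HDM2. NKG7, a killer cell gene, rose by 0.73 and CD3D, a T cell gene, by 0.64. Of 8 pigment epithelium markers 6 rose, with RPE65 at 0.68 and PMEL at 0.93, and of 10 fibroblast markers 5 rose, with S100A4 at 1.46 and PDGFRB at 1.05. After centring within level classes, 4 and 3 rose. Centred on the tissue-restricted families, 0 of 25 dim and middle-class probe sets of blood cell markers rose and 2 fell, 0 of 18 of pigment epithelium markers passed in either direction, and 3 of 34 of fibroblast markers rose and 2 fell (limma). NKG7 was then at -0.004 and PMEL at 0.20 (limma, adjusted p = 0.992 and 0.48). Only a coarse level class could be read for a probe set, so whether these markers are at 0 could not be told. Their part in the members' rise was not tested.

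Photoreceptor markers went the other way: of 12 measured, 5 fell and 0 rose as deposited, and 5 fell and 2 rose after centring within level classes. These shares that fell stood above the 25.1% and 21.6% of all genes called lower. As deposited, the 12 bright probe sets of these markers had a median difference of -0.85, beside -1.19 for all bright probe sets. Their 11 middle-class probe sets had one of -0.79, beside 0.12 for that class, and their 3 dim ones 0.46, beside 0.51. RBP3, the retinoid carrier of photoreceptors, fell by 3.95 ± 0.50 (SE; limma, adjusted p = 0.00107). After centring within level classes RBP3 fell by 2.81 (limma, adjusted p = 0.000172). THRB, the thyroid hormone receptor of cone cells, fell by 0.86 ± 0.15 as deposited (SE; limma, adjusted p = 0.003). The 7 THRB probe sets did not share 1 direction as deposited. Those that fell past the threshold differed by -2.40, -1.55, -1.24 and -0.58, while a dim one rose by 1.16 (limma, adjusted p = 0.0158). The others, at -0.58 and -0.79, did not pass (limma, adjusted p = 0.147 and 0.126). The mean of the photoreceptor markers per array was 0.31 to 0.89 in Control and -0.94 to 0.07 in GNPs-HDM2.

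The genes whose pattern over the 9 arrays was most like the mean of the members, after centring within level classes, were FHIP2B, NPM3, HLA-DQB1, SIRT2 and WDR38, with Pearson r from 0.994 to 0.996. Of these, HLA-DQB1 encodes a chain of an antigen-presenting protein of immune cells. The arrays share the conjugate's shift, and 17.1% of the 18146 genes compared had an r above 0.9, so a high r set few genes apart. As deposited HLA-DQB1 rose by 1.21 and WDR38 by 1.10, while NPM3 differed by -0.47, a direction that reversed to 0.67 after centring within level classes.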

How the data were processed

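The 9 PrimeView arrays (3 Control, 3 GNPs, 3 GNPs-HDM2) were read from the deposited value table. Its values are log2 values made by the authors. The base is assumed, a per-probe-set baseline had been subtracted (59.7% of probe sets hold an exact 0 on at least 1 array), and the summarizing tool is not given in the sources used here. Scanner files were not used here, and the number of arrays limits the precision. Of 49395 probe sets, 102 controls were left out; 45064 had 1 gene symbol, 1756 several and 2473 none in the platform annotation. Gene values are means over probe sets with 1 symbol. All 9 arrays were fitted together with limma 3.58.1 (R 4.3.3; lmFit, eBayes, Benjamini-Hochberg over all features, threshold 0.05), with no added filter, and the fit was tested on simulated data. Baseline levels were read from the binary step of the stored numbers on the Control and GNPs arrays (107 probe sets could not be classed).

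The members and gene lists were chosen with earlier results of these data known. Named genes are every member, up to 2 higher and 2 lower genes per list with the smallest adjusted p, IFNB1, IFNAR1, IFNAR2 and IRF9, and the 5 genes with the highest r with the members' mean. IFIT and OAS genes have near-identical relatives, so probe sets ending in _x_at or _s_at may read more than 1 transcript. The alternatives were a replicate block, fewer groups, array weights, other scalings, a level filter, the most specific probe set, left-out arrays and, added after seeing the data, gene-level level centring and the tissue-restricted yardstick. Same-numbered arrays did not deviate together in every pair, so no pairing was used.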

Additional observations from a re-analysis of the deposited data

Results flagged for a closer look

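The 2 probe sets shared by OAS2 and OAS3, which no member count uses, were also examined. In 11723698_a_at all 3 conjugate arrays lay above all Control and GNPs arrays, with a difference from Control of 0.29 ± 0.17 (SE) on the log2 scale, which did not pass the threshold (limma, adjusted p = 0.179). The other, 11723699_s_at, differed by 0.48 (limma, adjusted p = 0.159).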

How the results depend on the processing

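Of 22 member probe sets, 13 rose in GNPs-HDM2 against Control in the main fit. The count moved to 6 with only the 2 groups fitted and to 0 with quantile normalization. It was also 0 when centred on the tissue-restricted families or on olfactory receptors alone. A filter to level 4 or above kept only the 9 middle-class members, and 7 of these 9 rose, as in the main fit. Of all probe sets, 24.9% were called higher in the main fit and 10.8% with only the 2 groups. The share was 2.88% with quantile normalization, 20.2% at level 4 or above, 3.7% with the families and 19.4% when centred within level classes. Leaving out 1 array gave 6 to 18 members, beside 11.3% to 40% of all probe sets, or 0 to 2 higher and 0 to 1 lower with the families. Shares for the other fits are not given here. With the families, array weights gave 2 higher and 3 lower, and the replicate block, 2 groups alone and trended robust eBayes gave 0. Member genes (8 of 9) moved to 0 with quantile normalization, 4 with the most specific probe set, 5 when centred within level classes, and 4 to 8 with 1 array left out. Centred within level classes, the 7 probe sets moved to 12 with array weights, 0 with quantile normalization within classes, and 6 to 10 with 1 array left out.

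Against GNPs, the 16 probe sets moved to 8 with quantile normalization. With the families 1 was higher and 1 lower, and with olfactory receptors 0 were higher and 1 lower. At level 4 or above only 9 members were left, and 8 of these 9 rose, as in the main fit. Of all probe sets, 36.3% were called higher against GNPs in the main fit and 26.3% when level-centred. With the families, 3.68% were called higher and 41.8% lower. Shares for the other fits against GNPs are not given here. With the families, array weights gave 3 higher and 5 lower, trended robust eBayes 1 and 1, the block or 2 groups alone 0 and 1, and left-out arrays 0 to 2 and 0 to 4. Otherwise left-out arrays gave 10 to 20. Genes (7) moved to 4 with quantile normalization, 7 to 8 with an array left out, and the 10 level-centred probe sets to 5 with quantile normalization, 7 to 11 with an array left out, and 1 lower with array weights. For GNPs minus Control, array weights gave 1 lower probe set and gene, 1 higher when level-centred and 5 higher with the families, and quantile normalization 1 lower.

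Reversed differences were IFIT1 (-0.11 against Control and -0.11 against GNPs, level-centred), ISG15 against GNPs (-0.031 with median centring, -0.12 with quantile normalization), IFNAR2 (0.39 with its most specific probe set, 0.29 level-centred, -0.12 to 0.035 with an array left out), IRF9 (-0.56 with its most specific probe set) and NPM3 (0.67, level-centred). The cause was not tested.

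Same-numbered arrays of Control and GNPs-HDM2 correlated at 0.13, 0.04 and 0.23 in their deviations, so no pairing by number was evident. With 3 arrays a group these values cannot exclude a pairing. With the replicate block 12 probe sets and 7 genes rose against Control and 14 probe sets against GNPs. Limits are 3 arrays a group, unknown culture of origin, and values whose absolute level could be read only as a coarse class.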
